A study of Mus musculus with 9 samples.

Results

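The 9 macrophage libraries of the series were grouped by their own reads of Acod1, without regard to their labels. A library was placed in the high-Acod1 class if its Acod1 level was above 100 CPM (reads scaled to a common total of gene reads), and in the low-Acod1 class otherwise. The high class held 3 of 9 libraries, those labelled WT replicate 3, KO replicate 3 and KO+ITA replicate 3, and the low class held the other 6. The cells were macrophages grown in culture from the bone marrow of C57BL/6N mice 6 to 16 weeks old. By their titles, 3 libraries each came from wildtype cells (WT), from Irg1-/- cells (KO) and from Irg1-/- cells given 1 mM itaconate 4 h after the stimulus (KO+ITA). Irg1 is the older name of Acod1. Cells of all 9 libraries were treated with lipopolysaccharide (LPS), the bacterial cell wall component sensed in endotoxin responses, for 24 h at 100 ng/mL, so no library here shows the unstimulated state. The labels do not say which stretch of Irg1 was removed, nor whether replicates were different mice or different cultures, so the spread between libraries may be technical.

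Acod1 encodes aconitate decarboxylase 1, which converts the citrate cycle intermediate cis-aconitate to itaconate in activated macrophages. LPS is sensed by TLR4, which activates NF-kB for a first wave of cytokine, chemokine and feedback genes and interferon regulatory factors for a later wave of interferon-stimulated genes. Itaconate is known to inhibit succinate dehydrogenase, and it and its relatives modify cysteines on KEAP1, which releases the transcription factor NRF2 to its antioxidant target genes.

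Acod1 (ENSMUSG00000022126, GRCm38 chromosome 14, 103046977 to 103056573, plus strand) set the classes, so its levels are a description only. It had 4234 CPM (31169 reads) in the library labelled WT replicate 3, 4404 CPM (44920 reads) in that labelled KO replicate 3 and 5853 CPM (60716 reads) in that labelled KO+ITA replicate 3. In the low class it had 11.5 and 9.57 CPM in the libraries labelled WT replicates 1 and 2, 7.54 and 13.4 CPM in those labelled KO replicates 1 and 2, and 8.71 and 0.845 CPM in those labelled KO+ITA replicates 1 and 2. The member nearest the threshold from above, at 4234 CPM, was 317 times the one nearest from below, at 13.4 CPM, and thresholds of 20 or 1000 CPM gave the same 3 libraries. Each labelled group therefore held 1 high and 2 low libraries. The level went against the labels in 4 libraries: those labelled WT replicates 1 and 2 were low although labelled wildtype, and those labelled KO replicate 3 and KO+ITA replicate 3 were high although labelled Irg1-/-. The libraries were made from the 3′ ends of transcripts and the removed stretch is not named. No genotype is assigned here from Acod1 reads alone. Why the level went against the labels in these 4 libraries was not tested.

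The description labels carry a number before each barcode, which is taken here for its pool, a meaning that no label states. On that reading, the high library labelled WT replicate 3 shared pool 1 with the low libraries labelled WT replicates 1 and 2 and KO replicates 1 and 2. The high library labelled KO replicate 3 shared pool 2 with the low library labelled KO+ITA replicate 1, and the high library labelled KO+ITA replicate 3 was alone in pool 4. The 5 low libraries that shared a pool with a high one had 7.54 to 13.4 Acod1 CPM, and their Acod1 reads came to 0.209% to 0.545% of those of the high library in their pool. The library labelled KO+ITA replicate 2, alone in pool 3, had 8 Acod1 reads (0.845 CPM), and each of the other 5 low libraries was at least 8.92-fold above it. The barcodes of 8 bases differed between a low library and the high one of its pool at 6 to 8 positions. Across pools, the low library labelled KO+ITA replicate 2 carried the same barcode as the high library labelled WT replicate 3. Whether the low Acod1 reads go back to the pool was not tested.

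**Figure D1:**
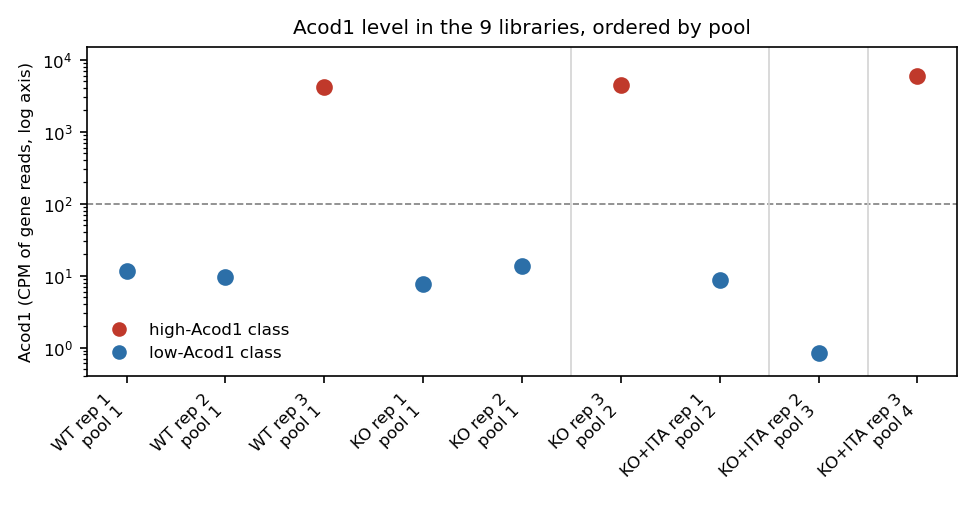
Acod1 level (CPM of gene reads, log axis) in each of the 9 libraries, ordered by the pool number in the labels; red points are the high-Acod1 class, blue points the low class and the dashed line the threshold of 100 CPM. The 3 high libraries lie between 4234 and 5853 CPM, the 5 low libraries that share a pool with one of them between 7.54 and 13.4 CPM, and the library alone in pool 3 at 0.845 CPM.

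Gene reads ranged from 7361671 to 20430359 per library, at which 3 reads correspond to 0.147 to 0.408 CPM. The library labelled KO+ITA replicate 3 stood apart. Its mean correlation with the other 8 libraries was 0.926 against 0.949 to 0.962 for each of the others. Its mitochondrial share was 0.709% of gene reads against 1.27% to 2.57% in the others, and 33.7% of its reads overlapped no counted gene feature. The mean correlation of log2 CPM was 0.940 within the high class (3 pairs), 0.962 within the low class (15 pairs) and 0.949 between the classes (18 pairs). Among the 82 tested genes named here, log2 differences that moved by over 1.5 times or turned in sign were counted. There were 33 without the library labelled KO+ITA replicate 3, 19 without that labelled WT replicate 3 and 13 without that labelled KO replicate 3. They include small differences and larger ones, such as Lamp2 at 1.60, which was 0.60 without the library labelled KO+ITA replicate 3. Values without a library, or the range over fits with 1 library left out, stand beside those that are discussed. Macrophage identity genes were measured in both classes: Adgre1, which encodes F4/80, had 602 to 1705 CPM in the high class and 928 to 1485 CPM in the low class, and Csf1r, the M-CSF receptor, 142 to 489 CPM and 280.5 to 493 CPM.

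Outside Acod1, 236 of 10780 tested genes had a fitted level more than 2-fold higher in the high class, and 271 more than 2-fold lower. No gene passed the edgeR quasi-likelihood test at an adjusted p of 0.05 (0 of 10780, 0%) and none came closer than an adjusted p of 0.25. Before adjustment, p was under 0.05 for 789 genes, 440 with a higher and 349 with a lower fitted level in the high class. Limma-voom called 0 genes, and DESeq2 called 26 (0.241%), 14 higher and 12 lower. EdgeR called 8 genes without the library labelled WT replicate 3, 1 (Kctd12) without that labelled KO+ITA replicate 1, and 0 without any of the other 7. The median standard error of a log2 fold change was 0.31, so the lack of edgeR calls does not show that levels were alike. The test is of association with the Acod1 class, not of genotype or itaconate.

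In 117 genes (1.09%) all 3 high libraries lay above all 6 low ones, and in 180 (1.67%) they lay below. Among the genes with at least 10 CPM in the mean of 1 class, 84 lay above and 124 below without overlap, and of these 19 and 16 differed by more than 2-fold. A looser reading uses the labels: the high library lay above both low libraries of its labelled group in all 3 groups for 599 genes (5.56%), and below both in all 3 for 565 (5.24%). Over all tested genes the median log2 fold change was -0.03, and 46.9% were positive. The class means of Acod1 differed by 9.50 on the log2 scale. Among other genes with at least 10 CPM in the mean of 1 class, the largest absolute log2 difference was 5.14, overlapping classes included. Of those whose high libraries lay all above the low ones, Nfib had the largest fitted difference, 2.73 ± 0.59. Its nearest high and low libraries had 4.54 and 4.43 CPM.

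**Figure D2:**
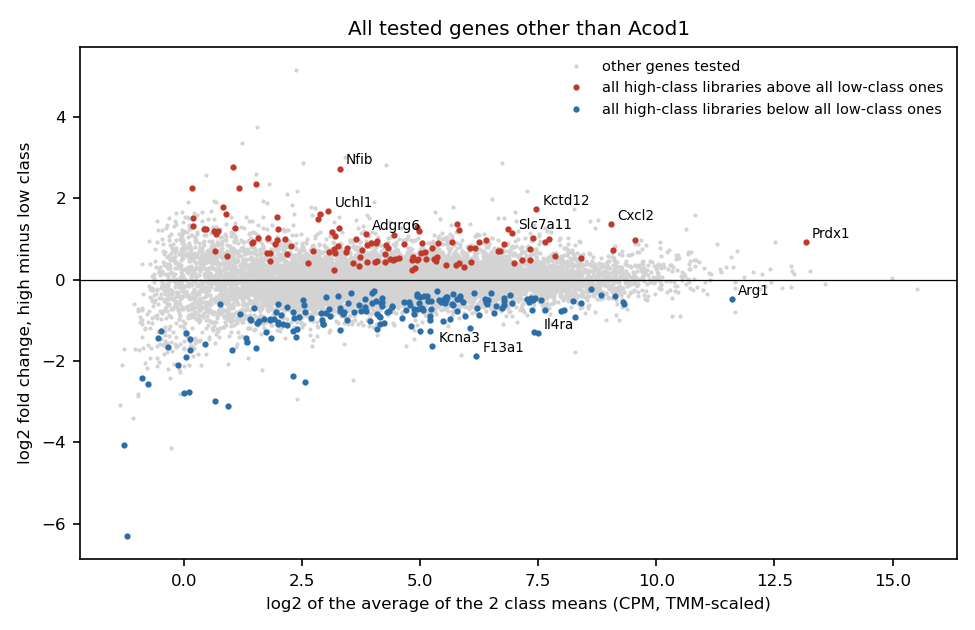
Log2 fold change (high minus low class) of the 10780 tested genes against the log2 of the average of the 2 class means in CPM; red and blue points are the 117 and 180 genes whose 3 high libraries lie all above or all below the 6 low ones. Most genes lie near 0, and the labelled genes include Kctd12 at 1.72, Cxcl2 at 1.35 and F13a1 at -1.87.

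The genes named first are the 8 in each direction with the smallest p among those with at least 10 CPM and no overlap of the classes, so their separation is a description of how they were picked. Their values in the high class are given for the libraries labelled WT, KO and KO+ITA replicate 3, in that order. DESeq2, run on the same counts, called 15 of these 16 genes, all but Adgrg6, against 0.241% of all tested genes. The 16 were picked by p on those counts, so this is no independent support. In the fit of all 9 libraries edgeR called 0 of them; it called Kctd12, Cxcl2, Nfib and F13a1 with no filter on low counts, Kctd12 without the library labelled KO+ITA replicate 1 and Kcna3 without that labelled WT replicate 3.

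Kctd12, an auxiliary subunit of GABA-B receptors, had the smallest p and is also the nearest gene before Acod1, 64.3 kb away on the opposite strand (GRCm38 chromosome 14, 102976581 to 102982637). Its high-class levels were 263, 262 and 284 CPM, and its low-class levels ran from 52.4 to 142 CPM with a median of 74.5. The 3 high libraries lay close together, whereas the low ones spread over a wider range, with the library labelled KO+ITA replicate 1 highest. The fitted difference was 1.72 ± 0.29 on the log2 scale (± SE), 3.30-fold, with an edgeR adjusted p of 0.25 and a DESeq2 adjusted p of 0.000358. Leaving out 1 library at a time gave log2 fold changes of 1.62 to 1.95.

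On the other side of Acod1, Mycbp2, a ubiquitin ligase gene 56.8 kb away, had 102, 95.3 and 129 CPM in the high class and 74.5 to 256 CPM with a median of 186 in the low class. The classes overlapped, and the log2 fold change was -0.69 ± 0.34. Of 15 listed genes around Acod1, 10 were tested, 5 of them with positive values, and the median was 0.03, with a range of -0.01 to 0.14 when 1 library was left out. EdgeR called 0 of these 10.

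Cxcl2, a chemokine that attracts neutrophils through CXCR2, was second by p. It had 674, 675 and 910.3 CPM in the high class and 212 to 395 CPM with a median of 289 in the low class. All 3 high libraries stood above the highest low one, that labelled KO+ITA replicate 2. The log2 fold change was 1.35 ± 0.24, with an edgeR adjusted p of 0.25 and a DESeq2 adjusted p of 0.000405, and it stayed at 1.18 to 1.45 when 1 library was left out.

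The RefSeq upstream stretches of Acod1 and Cxcl2 (GRCm38.p6, bases 250 to 51 before the start site) are shown because the first gene set the classes and the second had the highest CPM of the 8 genes named in the upward direction. Capitals mark matches, on either strand, to the NF-kB-type motif GGGNNNTTCC. The Acod1 stretch, chr14:103046762-103046961 on the plus strand, holds 0 matches and the Cxcl2 stretch, chr5:90903649-90903848 on the plus strand, holds 3, of which 2 overlap.
Acod1: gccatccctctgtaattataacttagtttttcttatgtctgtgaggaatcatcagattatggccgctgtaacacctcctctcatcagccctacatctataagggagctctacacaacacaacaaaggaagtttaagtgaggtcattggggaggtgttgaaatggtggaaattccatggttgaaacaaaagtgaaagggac
Cxcl2: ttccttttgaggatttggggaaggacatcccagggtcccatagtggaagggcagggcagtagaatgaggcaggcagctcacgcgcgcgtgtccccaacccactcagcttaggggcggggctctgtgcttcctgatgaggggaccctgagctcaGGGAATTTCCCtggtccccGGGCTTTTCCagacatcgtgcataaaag
The motif was in 1138 of 32851 such stretches (3.46%), and in 4 of the 16 primary NF-kB genes with an entry: Tnfaip3, Cxcl1, Cxcl2 and Nfkb2. A match is a string of letters and no evidence of binding.

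Other secreted and surface proteins were among the genes above. Il1a, the cytokine interleukin 1 alpha, had 176, 189 and 128 CPM against 39.8 to 86.5 CPM with a median of 78.3 in the low class, a log2 difference of 1.25 ± 0.28 (edgeR adjusted p 0.353, DESeq2 adjusted p 0.0152). Its lowest high library was the one labelled KO+ITA replicate 3, still above every low one. Slc7a11, the cystine importer of the cystine-glutamate exchange that supplies glutathione synthesis, had 148, 135 and 227 CPM against 53.9 to 110.4 CPM with a median of 72.5, a log2 difference of 1.13 ± 0.27 (edgeR adjusted p 0.353, DESeq2 adjusted p 0.0377). Here the library labelled KO+ITA replicate 3 was the highest. Adgrg6, an adhesion G protein-coupled receptor, had 18.2 to 22.4 CPM against 6.80 to 14.03 CPM, with a log2 difference of 1.12 ± 0.27 and a DESeq2 adjusted p of 0.0583.

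The other 3 genes above were more uneven. Hacd3, an enzyme of very long chain fatty acid elongation, had 46.4, 122 and 67.0 CPM against 29.7 to 40.5 CPM with a median of 32.6, and its log2 difference of 1.22 ± 0.27 became 0.75 without the library labelled KO replicate 3. Uchl1, a ubiquitin hydrolase, had 13.4, 7.67 and 17.0 CPM against 1.32 to 6.09 CPM with a median of 3.97, with a log2 difference of 1.68 ± 0.38. Nfib, a transcription factor of the nuclear factor I family, had 4.54, 7.28 and 39.3 CPM against 0.604 to 4.43 CPM with a median of 2.68. Its log2 difference of 2.73 ± 0.59 became 1.19 without the library labelled KO+ITA replicate 3, and the lowest high library was within 1 CPM of the highest low one.

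Among the genes below, F13a1, the catalytic subunit of coagulation factor XIII, had 32.9, 32.6 and 28.2 CPM against 56.5 to 209 CPM with a median of 110.4 in the low class. The high libraries were close to each other and the low ones spread widely, with the library labelled WT replicate 1 lowest and that labelled KO replicate 1 highest. The log2 fold change was -1.87 ± 0.40, with an edgeR adjusted p of 0.353 and a DESeq2 adjusted p of 0.0021. Il4ra, the receptor chain shared by interleukins 4 and 13, had 125, 128 and 54.5 CPM against 188 to 292 CPM with a median of 264. The library labelled KO+ITA replicate 3 was the lowest, and the log2 fold change of -1.32 ± 0.30 (DESeq2 adjusted p 0.00709) was -1.03 without it.

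Dab2, an endocytic adaptor, had 141, 93.7 and 58.9 CPM against 164 to 334 CPM with a median of 240.2, a log2 difference of -1.29 ± 0.32. Kcna3, a voltage-gated potassium channel, had 33.0, 16.4 and 6.55 CPM against 43.7 to 72.1 CPM with a median of 56.5, a log2 difference of -1.62 ± 0.40. The library labelled KO+ITA replicate 3, which stands apart, was the most extreme of the 9 libraries in 13 of the 16 genes named first. In Dab2 and Kcna3 the order of the high libraries was the same, with the library labelled WT replicate 3 nearest to the low class. Slc13a3, a sodium-coupled carrier of dicarboxylates such as succinate, had 13.9, 6.10 and 10.6 CPM against 16.6 to 31.0 CPM with a median of 24.2, with a log2 difference of -1.23 ± 0.30. The remaining 3 were Arhgap45, a GTPase-activating protein, at -1.27 ± 0.30, Akap8l, a nuclear A-kinase anchor protein relative, at -1.15 ± 0.28, and Fam122a, an inhibitor of protein phosphatase PP2A, at -1.26 ± 0.32. All 6 had an edgeR adjusted p of 0.353 and DESeq2 adjusted p-values of 0.0152 to 0.0496.

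**Figure D3:**
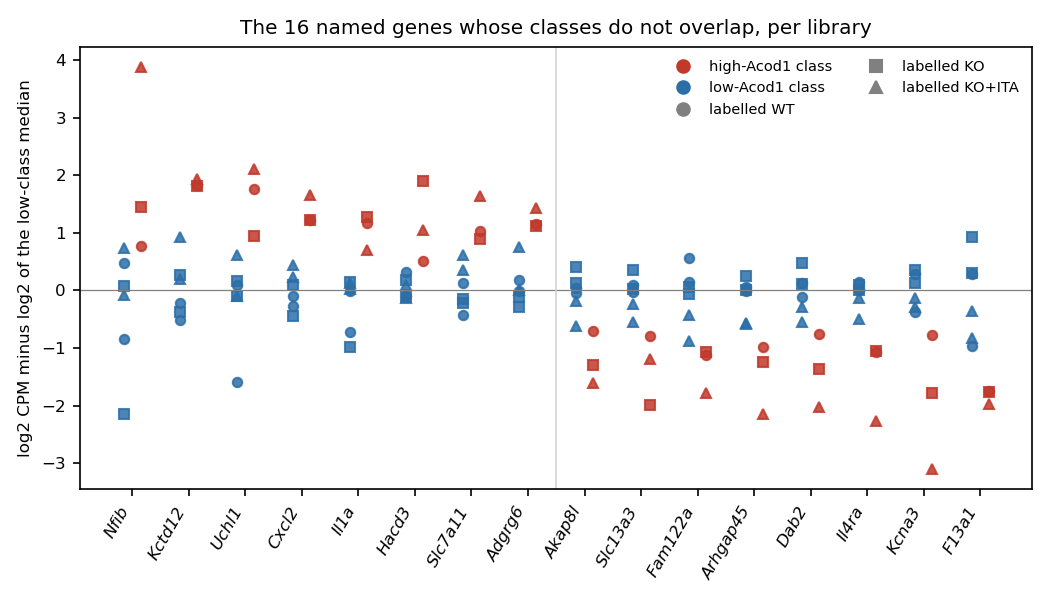
Log2 CPM of each library minus the log2 of the low-class median for the 16 genes, with red for the high-Acod1 class, blue for the low class and the marker shape for the labelled group. Red points lie all above the blue ones for the 8 genes on the left and all below for the 8 on the right, with the library labelled KO+ITA replicate 3 farthest out in 13 of the 16 genes and that labelled KO replicate 3 in the other 3.

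The genes whose log2 CPM went most closely with that of Acod1 over the 9 libraries differed by little. This likeness is a Pearson r over n = 9 libraries that fall into 2 separate clusters of Acod1, so it mainly restates the classes and is given without a p. The 5 highest among 7287 genes with a mean of at least 10 CPM were Aurkaip1, which encodes a mitochondrial ribosomal protein, at 0.92, Bst1, an ADP-ribosyl cyclase on the cell surface, at 0.91, Dirc2, a lysosomal membrane transporter, at 0.89, Hbegf, a ligand of the EGF receptor, at 0.89, and Panx1, a channel that releases ATP, at 0.88. Their log2 differences ran from 0.31 to 0.90. Bst1 had 393, 378 and 438 CPM against 262 to 296 CPM with a median of 279, and Panx1 had 19.8, 22.9 and 17.8 CPM against 8.20 to 16.2 CPM with a median of 10.4. The 5 lowest were Ankrd49, an ankyrin repeat protein, at -0.96, Prmt5, an arginine methyltransferase, at -0.93, Madd, a regulator of Rab GTPases, at -0.92, Htt, which encodes huntingtin, at -0.92, and Nuak1, an AMPK-related kinase, at -0.90. Their log2 differences ran from -0.75 to -0.43. Htt had 39.6, 39.5 and 40.0 CPM against 50.8 to 58.9 CPM, so the 3 high libraries were almost level. The median r over these genes was -0.04.

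The primary NF-kB genes are taken first by role. All 21 listed were tested, 0 were called by edgeR, 19 of 21 had positive log2 values and the median was 0.42, against 46.9% positive and a median of -0.03 over all genes. Leaving out 1 library at a time moved that median between 0.30 and 0.50. Cxcl2 and Dusp1 were the 2 members whose high libraries lay all above the low ones, against 1.09% of all tested genes. Cxcl2 had been picked above among genes without overlap. Dusp1, a phosphatase that switches off MAP kinases, had 254, 284 and 246 CPM against 66.5 to 212 CPM with a median of 129.8, a log2 difference of 0.92 ± 0.33 and an edgeR adjusted p of 0.563. Tnf, the cytokine TNF, had 55.5, 45.2 and 38.9 CPM against 15.1 to 46.1 CPM with a median of 28.1, a log2 difference of 0.66 ± 0.29 with overlap. For Fos, an AP-1 subunit, the log2 difference of 1.37 ± 0.45 became 0.61 without the library labelled KO+ITA replicate 3, and for Tnfaip3, the NF-kB inhibitor A20, 0.90 ± 0.41 became 0.21. Nfkbiz, an IkB family protein, had 0.10 ± 0.23 and turned to -0.03 without the library labelled KO replicate 3.

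Chemokines had 13 of 20 tested members with positive values, a median of 0.47 and 0 calls by edgeR. The median was 0.29 without the library labelled KO replicate 3 and 0.58 without that labelled KO+ITA replicate 3. Ccl3 and Ccl6, which attract monocytes and other leukocytes, had log2 differences of 0.61 ± 0.28 and 0.65 ± 0.26, and that of Ccl6 was 0.36 without the library labelled WT replicate 3. Cxcl10, an interferon-induced ligand of CXCR3, had 316, 431 and 231 CPM against 39.8 to 304 CPM with a median of 159, a log2 difference of 0.98 ± 0.54 with a 95% interval of -0.17 to 2.13. Cxcl9, another CXCR3 ligand, had -0.33 ± 0.43 with a range of -0.48 to 0.04 when 1 library was left out, and its widest values were both in the low class, at 97.3 to 447 CPM. Ccl5, which attracts T cells and monocytes, had 7610, 5404 and 1276 CPM against 3932 to 7037 CPM with a median of 5333, so 1 high library was below and 1 above every low one. Without the library labelled KO+ITA replicate 3 its log2 difference turned from -0.17 to 0.27.

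The later LPS-induced inflammatory genes were mixed. Of 31 listed, 27 were tested, 16 with positive values, and the median was 0.14 (0.09 without the library labelled KO+ITA replicate 3), with 0 calls by edgeR. Ptgs2, which encodes the prostaglandin enzyme COX-2, had 89.2, 176 and 316 CPM against 25.5 to 114 CPM with a median of 58.0, a log2 difference of 1.65 ± 0.42 (edgeR adjusted p 0.353, DESeq2 adjusted p 0.0496) that was 1.09 without the library labelled KO+ITA replicate 3. Nos2, the inducible nitric oxide synthase, had 105, 139 and 81.9 CPM against 35.2 to 111 CPM with a median of 45.5, a log2 difference of 0.91 ± 0.33. Il6, which encodes interleukin 6, was low throughout, with 3.21, 4.82 and 4.12 CPM against 0.719 to 3.22 CPM, and Il12b, the p40 chain of interleukin 12, had 11.6, 21.6 and 13.9 CPM against 7.26 to 12.4 CPM. Their log2 differences were 1.09 ± 0.50 and 0.79 ± 0.28, with edgeR adjusted p-values of 0.666 and 0.557, and that of Il12b was 0.49 without the library labelled KO replicate 3.

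Other strongly LPS-induced genes sat at overlapping levels in both classes. Saa3, an acute phase protein, had 23560 to 38500 CPM in the high class and 24750 to 41500 CPM in the low class, with a log2 difference of 0.04 and a 95% interval of -0.48 to 0.55. Il1b, which encodes interleukin 1 beta, had 576, 308 and 258 CPM against 335 to 444 CPM with a median of 357, a log2 difference of 0.03 with an interval of -0.54 to 0.60. The range of the 3 high libraries enclosed that of the 6 low ones for Il1b. Lcn2, the iron-siderophore binding protein lipocalin 2, had -0.29 ± 0.33, and 0.05 without the library labelled KO+ITA replicate 3. With 1 library left out, Saa3 ran over -0.09 to 0.21 and Il1b over -0.40 to 0.23. Differences inside these intervals were not detectable with 3 against 6 libraries.

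Feedback inhibitors had 15 of 22 members positive, a median of 0.21 and 0 calls by edgeR. The median was 0.09 without the library labelled KO+ITA replicate 3 and 0.08 without that labelled KO replicate 3. Atf3, a repressor induced by LPS and stress, had 0.54 ± 0.26. Il10, an anti-inflammatory cytokine, had 1.48 to 4.97 CPM against 1.40 to 3.69 CPM and 0.46 ± 0.50, or 0.03 without the library labelled KO+ITA replicate 3. Dusp2, a phosphatase of the same family as Dusp1, had -0.75 ± 0.31, or -0.48 without it.

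Type I interferon-stimulated genes were spread around 0. Of 49 tested members 29 were positive, the median was 0.09 (0.01 without the library labelled WT replicate 3, 0.20 without that labelled KO+ITA replicate 1) and edgeR called 0. Ifit2, an antiviral RNA-binding protein, had 915, 2708 and 3029 CPM against 367 to 1404 CPM with a median of 1044, a log2 difference of 1.23 ± 0.40, and Rsad2, the antiviral enzyme viperin, had 0.91 ± 0.40, or 0.56 without the library labelled KO+ITA replicate 3. Both had overlapping classes. Isg15, a ubiquitin-like modifier, had 0.58 ± 0.41, Irf7, the factor that amplifies interferon, 0.06 ± 0.28 with an interval of -0.53 to 0.66 and a range of -0.24 to 0.27 when 1 library was left out, and Stat2, a subunit of the interferon-activated factor, 0.68 ± 0.35, or 0.04 without the library labelled KO+ITA replicate 3. The interferon-induced GTPases had 12 of 15 positive and a median of 0.46, which was 0.23 without the same library. Gbp2, a guanylate-binding protein, had 246, 295 and 295 CPM against 123 to 275 CPM with a median of 186, a log2 difference of 0.59 ± 0.27 with an edgeR adjusted p of 0.663.

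NRF2 targets, the genes tied to itaconate through KEAP1, had 22 of 32 tested members positive, a median of 0.25 and 0 calls by edgeR. The median was 0.07 without the library labelled WT replicate 3 and 0.34 without that labelled KO+ITA replicate 3. Prdx1, a peroxide-reducing enzyme, had 13290, 12510 and 10250 CPM against 3265 to 9399 CPM with a median of 5932, without overlap, and a log2 difference of 0.92 ± 0.29 with an edgeR adjusted p of 0.537. Slc7a11, picked above among genes without overlap, was the other member whose classes did not overlap. Over all tested genes, 1.09% lay above without overlap. Sqstm1, the autophagy adaptor p62, had 0.96 ± 0.36, with the library labelled WT replicate 3 highest at 1541 CPM, and 0.61 without it. Hmox1, which encodes heme oxygenase 1, had 378, 318 and 424 CPM against 166 to 432 CPM with a median of 249.8, a log2 difference of 0.44 ± 0.29. Gclm, the modifier subunit of glutathione synthesis, had 0.22 ± 0.23 with a range of 0.13 to 0.34 when 1 library was left out, and Nqo1, a quinone reductase often used as an NRF2 readout, had -0.43 ± 0.41 from 3.08, 2.36 and 3.06 CPM against 2.49 to 5.44 CPM, a difference whose 95% interval was -1.31 to 0.44.

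ATF4 and stress response genes had 20 of 28 positive and a median of 0.16, which was 0.26 without the library labelled KO+ITA replicate 3 and 0.10 without that labelled KO replicate 3. Xbp1, a factor of the unfolded protein response, had 147, 166 and 292 CPM against 106 to 135 CPM with a median of 116 without overlap, and its log2 difference of 0.76 ± 0.25 was 0.38 without the library labelled KO+ITA replicate 3. Ppp1r15a, which directs dephosphorylation of eIF2 alpha, had 1.07 ± 0.30, and 0.64 without it. Neither passed the edgeR test.

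Genes around itaconate itself had mostly negative fitted differences with a small median. Citrate cycle and coenzyme A genes linked to itaconate had 6 of 29 members positive, against 46.9% of all tested genes. Their median was -0.10, with members from -0.67 to 1.18 and 0 calls by edgeR. That median was -0.01 without the library labelled KO+ITA replicate 3 and -0.36 without that labelled WT replicate 3. For Sdha, the catalytic subunit of succinate dehydrogenase, the difference was -0.12 (95% interval -0.65 to 0.42), and -0.41 to 0.09 when 1 library was left out. Idh1, the cytosolic isocitrate dehydrogenase, had -0.03 (95% interval -0.54 to 0.47) and -0.16 to 0.11 in the same way, and Auh, a mitochondrial enoyl-CoA hydratase, had -0.53 ± 0.29, with a range of -0.92 to -0.26 when 1 library was left out.

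Glycolysis genes had 14 of 25 positive and a median of 0.02, which was -0.23 without the library labelled WT replicate 3 and 0.19 without that labelled KO+ITA replicate 3. Slc2a6, a lysosomal hexose carrier induced in inflammatory macrophages, was the 1 member without overlap, against 1.09% of all tested genes that lay above. It had 28.3, 25.3 and 21.1 CPM against 8.59 to 18.8 CPM with a median of 14.2, a log2 difference of 0.85 ± 0.26. Slc2a1, the glucose carrier GLUT1, had 0.11 ± 0.27, Hk2, a hexokinase, -0.18 ± 0.26, and Ldha, which makes lactate, 0.12 ± 0.31. With 1 library left out they ran over -0.09 to 0.33, -0.30 to -0.05 and -0.34 to 0.44.

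Mitochondrially encoded genes had 3 of 13 positive and a median of -0.23, which was -0.04 without the library labelled KO+ITA replicate 3 and -0.51 without that labelled WT replicate 3. In mt-Atp6, a subunit of ATP synthase, the library labelled KO+ITA replicate 3 had 858 CPM. The other high libraries had 2726 and 3534 CPM, and the low class 1598 to 5439 CPM. The list's deviation from the mean over all 9 libraries was -1.27 on the log2 scale in the library labelled KO+ITA replicate 3. It was -0.23 to 0.67 in the others. The part of RNA quality in these values was not tested.

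Macrophage identity genes had 4 of 20 positive and a median of -0.24, which was -0.08 without the library labelled KO+ITA replicate 3. Mertk, a receptor for the uptake of dying cells, was the 1 member without overlap, against 1.67% of all tested genes that lay below. It had 179, 233 and 179.5 CPM against 236 to 391.7 CPM with a median of 342. Its log2 difference was -0.76 ± 0.24 with an edgeR adjusted p of 0.537. Fcgr3, an Fc receptor, had -0.81 ± 0.37, and -0.47 without the library labelled KO+ITA replicate 3. Csf1r had -0.28 ± 0.32 and Adgre1 -0.04 ± 0.30, and both turned in sign without that library, to 0.04 and 0.28. In bulk libraries, fewer cells of a kind and less RNA per cell cannot be told apart.

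Alternative activation markers, genes raised by interleukins 4 and 13, were lower on the median in the high class. Of 18 listed, 10 were tested, 4 with positive values, and the median was -0.33 with 0 calls by edgeR. Leaving out 1 library at a time gave medians of -0.47 to -0.27. Arg1, the arginine-consuming enzyme arginase 1, had 2901, 2476 and 2376 CPM against 3048 to 4656 CPM with a median of 3485, without overlap. Its log2 difference was -0.48 ± 0.23 with an edgeR adjusted p of 0.681. Stab1, a scavenger receptor, had 147, 139 and 94.7 CPM against 155 to 189 CPM with a median of 185, a log2 difference of -0.48 ± 0.23. With Il4ra these were the 3 of 10 tested members whose high libraries lay all below the low ones, against 1.67% of all tested genes. Il4ra had been picked above among genes without overlap.

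Antigen presentation genes were not ordered by class. Those of MHC class II and costimulation had 6 of 12 positive and a median of 0.00, and those of MHC class I 17 of 23 positive and a median of 0.15. H2-Ab1, an MHC class II chain, had -0.37 ± 0.32, and Cd74, the invariant chain, -0.71 ± 0.31. Without the library labelled KO+ITA replicate 3 these were -0.07 and -0.38. With 1 library left out, the class II median ran from -0.12 to 0.22 and the class I median from 0.04 to 0.24. Reads of near-identical H2 genes can be split between them, so single H2 genes are uncertain. Lysosome genes had 19 of 32 positive and a median of 0.02, which was 0.24 without the library labelled KO+ITA replicate 3 and -0.19 without that labelled WT replicate 3. For Lamp2, a lysosomal membrane protein, the high class had 1022, 1730 and 5431 CPM against 645 to 1786 CPM with a median of 749, and the log2 difference of 1.60 ± 0.43 was 0.60 without the library labelled KO+ITA replicate 3. Cholesterol and fatty acid genes had 16 of 28 positive and a median of 0.20, and cell cycle genes 12 of 20 and 0.17, with a range of 0.08 to 0.37 when 1 library was left out. Mcm6, a subunit of the replicative helicase, had 7.92 to 9.62 CPM against 11.1 to 20.2 CPM, a log2 difference of -0.58 ± 0.28. EdgeR called 0 members of any of these 5 lists.

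**Figure D4:**
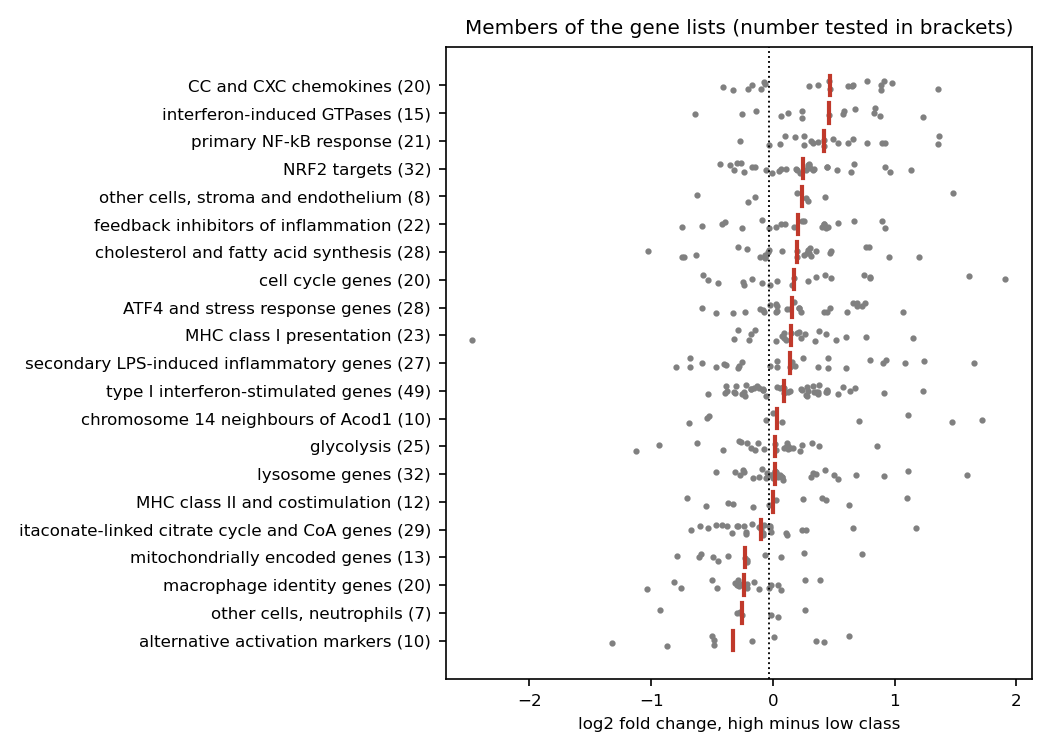
Log2 fold change (high minus low class) of each tested member of the gene lists, as grey points, with a red bar at the list's median and a dotted line at the median over all tested genes of -0.03. Medians run from -0.33 for alternative activation markers to 0.47 for chemokines, and the members of each list spread over more than these medians.

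**Figure D5:**
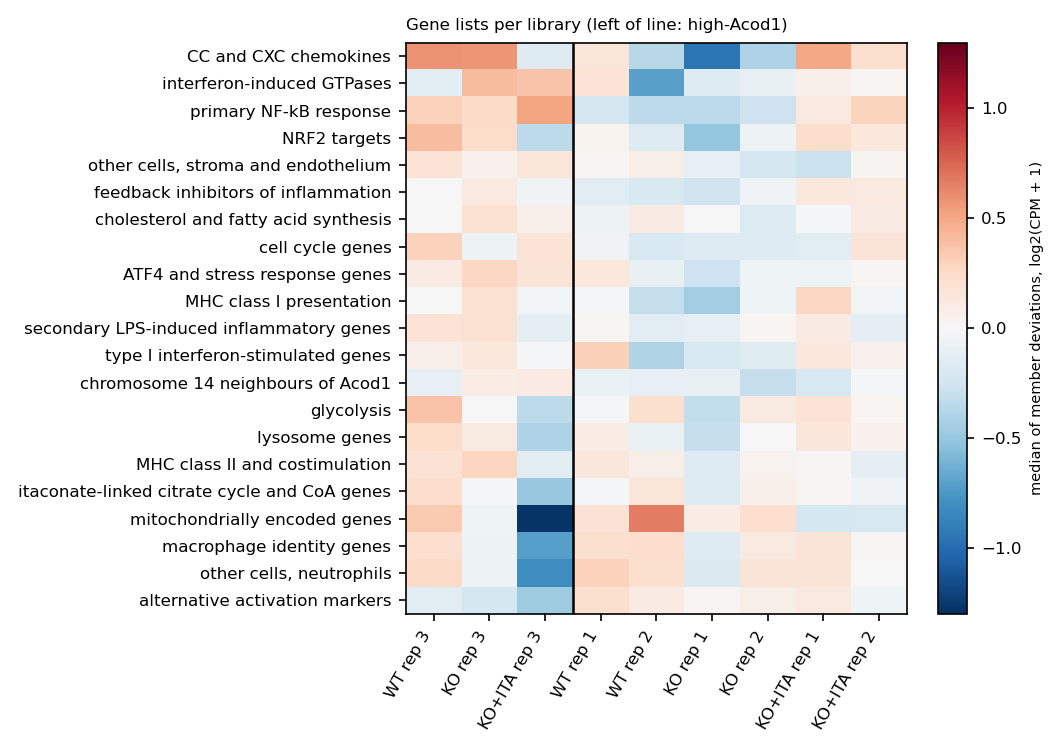
Median over the members of each list of log2(CPM + 1) minus the gene's mean over the 9 libraries, per library, with the 3 high-Acod1 libraries left of the line. Primary NF-kB genes are at 0.25 to 0.51 in the high libraries, but the low library labelled KO+ITA replicate 2 is at 0.29, and the mitochondrial list is lowest in the library labelled KO+ITA replicate 3 at -1.27.

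Per library, 1 of the 21 plotted lists separated the classes, that of alternative activation markers, whose median deviations were -0.15, -0.23 and -0.47 in the high libraries and -0.06 to 0.21 in the low ones. The primary NF-kB list did not. Its median deviation was 0.30, 0.25 and 0.51 in the high libraries, and it was -0.34 to -0.22 in the low libraries labelled WT and KO and 0.13 and 0.29 in those labelled KO+ITA. Chemokines were at 0.59 and 0.57 in the high libraries labelled WT and KO replicate 3, but at -0.17 in that labelled KO+ITA replicate 3, while the low libraries ran from -0.94 to 0.50. The low library labelled KO replicate 1, which had the most gene reads, was the lowest of all 9 for chemokines and NRF2 targets, at -0.94 and -0.50. Whether depth has a part in that was not tested.

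The summed levels of markers of other cell types overlapped between the classes in each of 6 lists. Summed over 9 measured T and NK lymphocyte markers they came to 0.882 to 1.93 CPM in the high class and 0.708 to 1.32 in the low class, with Cd3e, Cd8a, Ncr1, Nkg7 and Gzma at 0 in all libraries and most of the rest from Cd4. The 6 measured B lymphocyte markers came to 0.272 to 0.686 and 0.343 to 1.47 CPM, with Cd79a, Pax5 and Vpreb3 at 0. Neutrophil markers came to 195 to 334 CPM in the high class and 232 to 331 in the low class, with 47.9% from S100a8, which had 175, 137 and 36.6 CPM against 113 to 164 CPM. Stromal and endothelial markers came to 248 to 308 and 206 to 293 CPM, with 51.6% from the collagen gene Col1a2. Kdr, an endothelial growth factor receptor in that list, lay above without overlap, at 5.21, 11.9 and 14.1 CPM against 2.34 to 5.04 CPM. Dendritic cell markers came to 3.76 to 6.11 and 1.95 to 5.74 CPM, and the chemokine receptor Ccr7 among them had 2.14, 1.97 and 2.43 CPM against 0.858 to 1.22 CPM, above without overlap but close to the counting floor. Erythroid, mast cell and megakaryocyte markers came to 0.392 to 2.31 and 0.367 to 2.04 CPM. The part of these cells in the gene differences was not tested.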

How the data were processed

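The deposited table holds whole-number counts of reads for each gene and library, not normalized by the authors as far as the values show. The submitters' processing notes name STAR, HTSeq and mm10. Their versions, filters and annotation release are not given in the sources used here. Per the labels' protocols, libraries were made with barcoded oligo-dT primers, pooled and kept strand-specific. No molecular identifier is mentioned, so copies of 1 molecule count separately. Counting floors of 3 reads cover counting error only. The table held 22165 gene rows and 5 summary rows, which stayed out of library sizes and tests. The largest share among the summary rows, reads that overlapped no counted gene feature, was 23.1% to 33.7% of a library. Symbols and GRCm38 positions were matched for 21745 identifiers. The HTSeq setting for strand was not given, so overlapping and antisense genes are uncertain.

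The classes were set by Acod1 CPM of gene reads. The members, the gene lists and the tests were chosen with earlier results of these data known, so nothing here is independent support for a pattern seen in them before. Acod1 stayed in library totals and was left out of the fit. Counts were tested with edgeR 4.0.16 in R 4.3.3 (quasi-likelihood F test, two-sided, trimmed mean of M-values scaling, expression filter with a minimum count of 10, class as the only term), which left 10780 genes, and p-values were adjusted by Benjamini-Hochberg with a threshold of 0.05. CPM values other than those of Acod1 and of marker sums carry that scaling. DESeq2 1.42.0, limma-voom (limma 3.58.1), other scalings and filters, terms for labelled group and pool, and fits without 1 library were alternatives. Named genes were Acod1, the 8 in each direction with the smallest p at 10 CPM or more and no overlap, up to 3 members per list by p, a panel of 32 genes, and the 5 genes each with the highest and lowest correlation with Acod1, not all of which are printed. Promoter stretches came from RefSeq (GRCm38.p6).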

Additional observations from a re-analysis of the deposited data

Results flagged for a closer look

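Within the 6 low-Acod1 libraries, 82 genes named in the report, the Acod1 level and 5 library measures were screened for 1 library far from the other 5 (Dixon's test at the 95% level). Chance flags about 1 in 20 such groups. The Acod1 level of the library labelled KO+ITA replicate 2, 0.845 CPM, was far below the others. The library labelled KO replicate 1 had far more gene reads than the others, 20430359. Uchl1 had a low value of 1.32 CPM in the library labelled WT replicate 1, and Prmt5 a low value of 47.8 CPM in that labelled KO replicate 2. Lamp2 had a high value of 1786 CPM in the library labelled KO+ITA replicate 2, and Mcm6 a high value of 20.2 CPM in that labelled KO replicate 1. The high class, with 3 libraries, was too small for this screen.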

How the results depend on the processing

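EdgeR called 0 genes with RLE, upper-quartile or no scaling factors, with a filter of 10 CPM in 3 libraries, with labelled group or pool as a term and with log2 Acod1 CPM in place of the class. It called 16 genes (15 higher, 1 lower) with no filter on low counts and 1 (Nfkbie) in pool 1 only, where the high class is a single library assumed to vary like the others. DESeq2 called 26. Without 1 library the count ran from 0 to 8, and was 8 without the library labelled WT replicate 3. With the filter of 10 CPM, which left 7618 genes, 303 lay below in all 3 labelled groups and 85 lay below without overlap. In the main fit these were 565 and 180 of 10780 genes. The causes of these and the other shifts were not tested. Of the alternative values for list medians and single genes, 2465 moved by less than the spread between libraries and 109 by more. The main edgeR fit called no gene, so it held no called value to reverse. Of the 2574 alternative values, 114 had the opposite sign to the main fit. Scaling alternatives moved the median of all genes by no more than 0.054 on the log2 scale.

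No paired analysis was possible because the high-Acod1 library is replicate 3 in every labelled group, so a term for the replicate number would hold the class itself. At 3 reads, levels under 0.147 to 0.408 CPM could not be told from 0. High and low libraries came in the same numbers in each labelled group, so class and labelled group were balanced. The label and the Acod1 level were in conflict for 4 libraries. Pools held the classes and the labelled groups unevenly, so with 3 against 6 libraries neither can be fully told apart from pool. The library labelled KO+ITA replicate 3 is both a high library and the one farthest from the rest.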

Other observations

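DESeq2 called 11 genes besides the 15 described above, and they are named here after their values were seen. Gprc5b, an orphan G protein-coupled receptor, lay above in the high class without overlap with a log2 difference of 2.79 and an adjusted p of 0.0152, as did Mcm10, a replication initiation factor, at 2.38 (adjusted p 0.0257). Ptgs2 and 4 others had a higher fitted level with overlap: Gpr157, another orphan receptor, at 2.85, the mitotic kinase Mastl at 2.21, Gse1 at 2.00, and Il1f9, the cytokine interleukin 36 gamma, at 1.93. Below without overlap were Rtel1, a helicase of telomere maintenance, at -3.13, Xlr at -3.03, Mtus2, a microtubule-associated protein, at -2.49, and Eps8l1, an actin regulator, at -2.36. EdgeR called 0 of these 11 in the fit of all 9 libraries. It called Gpr157, Mastl, Gse1 and Il1f9 without the library labelled WT replicate 3, and Gpr157 and Il1f9 with no filter on low counts.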
